A study of Mus musculus with 7 samples.

Results

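The AMPA and kainate receptor genes are 9 genes, chosen by name: Gria1, Gria2, Gria3 and Gria4 for the 4 AMPA receptor subunits, and Grik1, Grik2, Grik3, Grik4 and Grik5 for the 5 kainate receptor subunits. They are 9 of the 21938 protein-coding genes of the mouse annotation. Each was described by the ATAC-Seq peaks that overlapped its gene body or the 20 kb on either side (its window), counting each distinct interval of a list once. The 9 windows covered 3.26 Mb, did not overlap each other, and held 1390 of the peaks in the 7 lists, 472 in AMPA and 918 in kainate receptor gene windows. When peaks of different libraries that share at least 1 base were merged, 155 of the 133698 regions called in at least 2 libraries (consensus regions) fell in these windows.

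AMPA and kainate receptors are glutamate-gated cation channels, built as tetramers of these subunits, that let sodium and in some cases calcium into the cell when glutamate binds. They carry fast excitatory transmission in the brain, and islet endocrine cells respond to glutamate as well, which alpha cells release together with glucagon. GluA2, the Gria2 product, keeps AMPA receptors closed to calcium once its transcript has been edited. GluK1 to GluK3 can form kainate receptors by themselves, whereas GluK4 and GluK5 need one of them as a partner.

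The libraries came from FACS-sorted islet cells of healthy mice, with 2 alpha, 3 beta and 2 delta replicates. All mice carried mIns1-H2b-mCherry, a red nuclear reporter of the insulin promoter, and Rosa-LSL-YFP, a yellow reporter that Cre switches on, together with Gcg-Cre for alpha cells or Sst-Cre for delta cells. Mice of a sex were pooled for a sample, so that a library is a pool of animals, and YFP marks cells with a history of Cre as well as cells that make the hormone now. Ages are not given in the sources used here. The female pools were alpha 1, beta 2 and delta 1, and the male pools were alpha 2, beta 1, beta 3 and delta 2. Beta cells were sorted from mice with either Cre, and the lists of all 3 beta libraries carry the name of another cell type, so that the labels were followed throughout.

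The lists held 75860 to 518503 distinct peaks. Beta 1 stood apart with 518503 peaks, of which 73.0% shared a single -log10 p value, against 19.5 to 38.5% in the other 6 lists. With a -log10 q (the false discovery rate of the peak caller on a log scale) of at least 2, the lists held 25903 to 52057 peaks, and beta 1 the fewest. Because of this, a peak is given below by its percentile, by -log10 p, within its own list, and by its -log10 q, and a percentile of 48.1 in beta 1 marks that single weak value. Percentiles also depend on list length. In the long beta 1 list, a peak with a -log10 q of 2.05, at the Gria2 start, had a percentile of 95.0. For some peaks the rank is therefore added, counted from the strongest peak of a list. At Gcg, a peak no further than 1 kb from the 5' end was called in both alpha libraries, in delta 2 and in no beta library. At Sst the peak was weak in both delta libraries (percentiles 17.1 and 14.4, -log10 q of 0.951 and 0.966). In beta 1 it had a percentile of 95.5 and a -log10 q of 2.34, the 1 library where it reached 2. Thus beta 1 went against its label at this gene, and the counts that turn on beta 1 are also given without it. Rbp4 had a start-site peak in both alpha, both delta and no beta library. Of the 6 beta markers, Ins1, Mafa and Nkx6-1 had one in all 7 libraries, Ins1 with its highest percentiles in beta 1 (98.7) and beta 3 (86.7), whereas Ins2 had one in 1 beta library alone, and that of Slc2a2 lay at other transcript starts. Of 15 markers of acinar, duct, immune, endothelial, PP, neuronal and glial cells, 9 had a start-site peak in at least 1 library and 4 with a -log10 q of 2 or more. These 4 were the duct marker Cftr (a peak in all 7 libraries, with a -log10 q of 5.32 and 4.47 in delta and under 2 elsewhere), the endothelial marker Kdr (4.14, in delta 1 alone) and the neuronal genes Tubb3 (6 libraries) and Snap25 (all 7), of which Snap25 serves exocytosis in endocrine cells too. Ptprc, Ppy, Krt19, Gfap, Cpa1 and Cpb1 had none, and the part of other cell types in the results was not tested. Open sites in a larger part of the cells and wider opening per cell cannot be told apart in sorted bulk samples.

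Sequences at the start sites with the most and the fewest calls are shown first, because they differed in base composition. RefSeq promoters (250 bases before to 50 after the start, GRCm38.p6) were at hand for Gria2, Gria4, Grik2, Grik3, Grik4 and Grik5. Grik2 had a peak at its 5' end in all 7 libraries and Grik5 in none. The 250 bases upstream of each follow, 5' to 3' in the direction of transcription, with each CG dinucleotide in capitals.
Grik2 (chr10:49788755-49789004, minus strand): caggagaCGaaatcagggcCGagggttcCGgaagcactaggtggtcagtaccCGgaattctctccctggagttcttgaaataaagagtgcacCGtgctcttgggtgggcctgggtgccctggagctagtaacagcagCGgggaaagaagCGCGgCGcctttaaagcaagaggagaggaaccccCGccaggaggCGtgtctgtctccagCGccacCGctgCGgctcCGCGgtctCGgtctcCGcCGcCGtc
Grik5 (chr7:25072370-25072619, minus strand): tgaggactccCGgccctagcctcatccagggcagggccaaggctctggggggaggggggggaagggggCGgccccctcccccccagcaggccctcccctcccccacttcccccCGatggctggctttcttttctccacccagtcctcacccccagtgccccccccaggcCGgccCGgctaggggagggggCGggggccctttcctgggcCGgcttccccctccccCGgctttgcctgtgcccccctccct
The Grik5 promoter was 72.0% G or C but held 10 CG dinucleotides in its 300 bases. That of Grik2 was 64.7% G or C and held 26. The counts were 26 in Gria2, 17 in Gria4, 50 in Grik3 and 42 in Grik4, and the median of 32817 promoters was 7. Thus the member with no call at its 5' end had the fewest CG dinucleotides of these 6, although its share of G and C was at or above that of 93.5% of all promoters and above that in Gria2, Gria4, Grik2 and Grik4.

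The Gria2 promoter held an exact match to the RE1 consensus, the element bound by the repressor REST, which keeps many neuronal genes silent outside neurons. Both strands were searched, and 21 of 32817 promoters (0.0640%) held a match. The match of 16 letters is in capitals.
Gria2 (chr3:80802836-80803085, minus strand): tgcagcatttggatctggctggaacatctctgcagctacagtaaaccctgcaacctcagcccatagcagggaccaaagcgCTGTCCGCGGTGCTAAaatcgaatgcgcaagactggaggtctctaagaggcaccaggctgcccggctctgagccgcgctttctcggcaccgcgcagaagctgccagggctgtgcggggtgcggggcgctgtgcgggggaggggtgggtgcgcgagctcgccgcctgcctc
None of the other 5 promoters held a match, which says only that these letters were not in those windows. A peak lay at the Gria2 start in 6 of 7 libraries.

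At the 5' ends, the 9 genes fell into those called in nearly every library and those called in few. Start sites were counted as open in alpha, beta or delta cells where 2 or more replicates had a peak no further than 1 kb away. In alpha cells 5 of 9 members were open, beside 56.8% of all protein-coding genes. In beta cells 7 of 9 were open, beside 56.1%, and in delta cells 4 of 9, beside 54.1%. Without beta 1, the beta count was 4 of 9, beside 44.3% of all genes. It was 6 without beta 2, beside 52.0%, and 5 without beta 3, beside 45.7%, as both remaining beta libraries then had to have a peak. Thus the members' shares lay on either side of the shares of all genes. The beta count fell with each beta library left out, and most without beta 1.

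Grik2, which encodes the core kainate subunit GluK2, had the strongest start-site peak of the family. Its percentile was 95.7 in alpha 1, 97.1 in alpha 2, 99.7 in beta 1, 90.9 in beta 2, 96.6 in beta 3, 97.4 in delta 1 and 95.5 in delta 2, and -log10 q ranged from 7.05 in beta 2 to 35.5 in alpha 2. All 7 libraries were high and the cell types overlapped. The region (chr10:49788248-49789163, GRCm38) also reaches to less than 1 kb from the start of the noncoding gene Gm48123, and accessibility at the shared region cannot be assigned to either gene.

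Gria2 had a start-site percentile of 91.5 and 91.2 in the alpha libraries, 95.0 in beta 1, 65.6 in beta 3, 89.5 in delta 1 and 81.3 in delta 2, and no peak was listed in beta 2. The -log10 q was 12.1 and 16.0 in alpha, 2.05 and 2.26 in the 2 beta libraries with a peak, and 10.1 and 9.15 in delta. Thus both alpha and both delta libraries lay above every beta library by -log10 q, and the same order did not hold by percentile, where beta 1, the longest list, was highest. By rank it held, with 11210 and 9816 in alpha and 16568 and 14200 in delta, against 25897 in beta 1 and 35765 in beta 3. In beta 2 a peak lay 1.68 kb into the gene instead (chr3:80800986-80801579), which 6 libraries shared and beta 1 lacked.

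Gria3, the AMPA subunit gene on chromosome X, had a start-site peak in all 7 libraries. Percentiles were 71.3 and 77.0 in alpha, 94.6, 81.3 and 80.2 in beta, and 71.8 and 50.1 in delta, and all but beta 1 reached a -log10 q of 2. Grik4, which encodes the partner subunit GluK4, had one in all 7 libraries as well, at 57.8 and 85.7 in alpha, 48.1, 76.9 and 2.82 in beta, and 76.9 and 72.1 in delta. It was weaker, with a -log10 q of 2 or more in 4 libraries. Grik3, which encodes GluK3, had a peak in 6 libraries and in 3 with a -log10 q of 2 or more, with percentiles of 42.4 and 76.8 in alpha, 48.1, 12.5 and 71.8 in beta, and 79.7 in delta 1.

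The remaining 4 genes were rarely called at the start. Gria4 had a peak in alpha 1 (percentile 79.7), beta 1 (48.1) and beta 2 (76.9), and in no delta library. Gria1, which encodes GluA1, had one in beta 1 (48.1) and beta 3 (45.3) alone, and Grik1, which encodes GluK1, in alpha 2 (36.6) and beta 1 (48.1) alone, none of which reached a -log10 q of 2. Grik5, which encodes GluK5, had none in any library, and within 1 kb of any of its annotated starts 1 library had a peak. Most of the alpha and beta calls at these 4 genes were weak values.

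**Figure D1:**
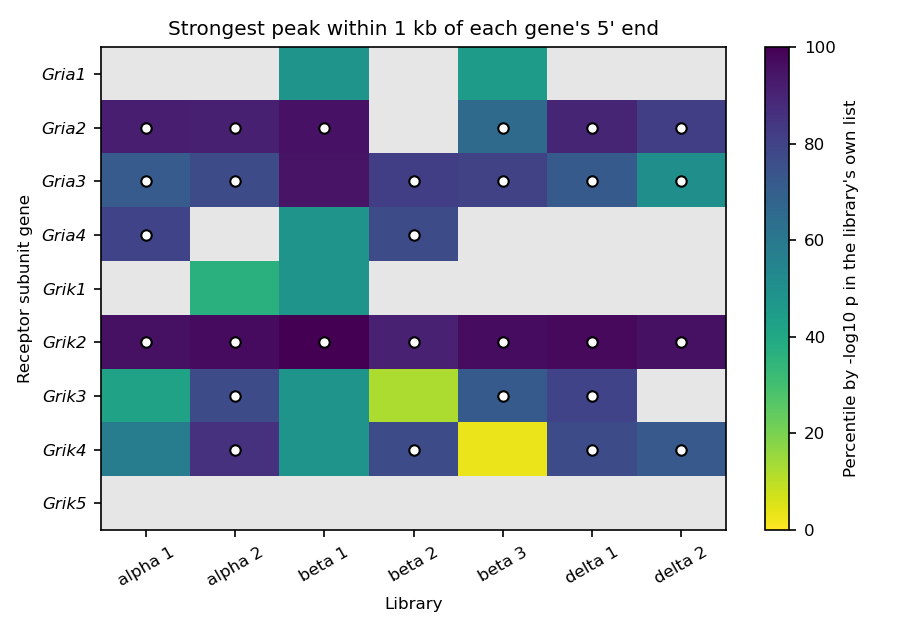
Strongest start-site peak, at most 1 kb away, of each of the 9 genes (rows) in each of the 7 libraries (columns), coloured by its percentile by -log10 p within the library's own list. Grey marks no peak and a white circle a -log10 q of 2 or more. Grik2 is dark with a circle in all 7 libraries, Gria2 in 6, and the Grik5 row is empty.

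Genes with the most similar start-site percentiles over the 7 libraries were Rps3 (mean absolute difference 0.916 percentile points) and Wdr48 (1.34) for Gria2, Zfp316 (5.53) and Mrps18a (6.73) for Grik3, and Sec16b (7.60) and Gm21798 (7.74) for Gria4. Presence alone was shared widely, since 1240 other genes had peaks in the same 6 libraries as Gria2, against 15 in the same 3 as Gria4. For Gria1 (Pi15 and Abca12) and Grik1 (St18 and Mettl21e) the difference was 0, as only the repeated weak value of 2 lists enters.

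Away from the start sites, 4 regions carried the main contrasts described next, and their sequences are given for the 201 bases centred on the strongest summit. Each is on the strand of its gene (GRCm38), and capitals mark matches, on either strand, to the motifs named after the 4 lines.
Gria2, 92.2 kb into the gene (chr3:80710546-80710746): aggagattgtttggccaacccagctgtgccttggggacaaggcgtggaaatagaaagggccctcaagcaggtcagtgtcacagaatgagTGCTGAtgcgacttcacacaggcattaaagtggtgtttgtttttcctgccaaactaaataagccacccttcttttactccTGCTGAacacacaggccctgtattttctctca
Gria2, 93.5 kb into the gene (chr3:80709257-80709457): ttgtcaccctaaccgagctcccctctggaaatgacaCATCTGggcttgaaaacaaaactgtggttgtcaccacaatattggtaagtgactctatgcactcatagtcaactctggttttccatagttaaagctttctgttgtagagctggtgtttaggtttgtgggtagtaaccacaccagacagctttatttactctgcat
Grik1, 119 kb into the gene (chr16:88171346-88171546): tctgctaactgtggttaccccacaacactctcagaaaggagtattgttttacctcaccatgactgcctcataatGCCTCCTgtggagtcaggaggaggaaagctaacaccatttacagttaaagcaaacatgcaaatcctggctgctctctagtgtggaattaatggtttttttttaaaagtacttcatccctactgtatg
Grik2, 657 kb into the gene (chr10:49131420-49131620): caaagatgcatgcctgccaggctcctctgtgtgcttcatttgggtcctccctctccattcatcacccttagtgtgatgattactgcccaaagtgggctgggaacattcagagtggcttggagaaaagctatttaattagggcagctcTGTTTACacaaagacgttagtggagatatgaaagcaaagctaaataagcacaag
The capitals mark 2 matches to the MAF motif TGCTGA in the first, which 18.7% of the 133698 consensus regions held in windows of the same length. In the second they mark the E-box CAGATG, here on the opposite strand (18.4%), in the third the core of the CTCF motif (AGGNGGC, also on the opposite strand, 16.2%), and in the fourth the FOXA motif TGTTTAC (4.88%). Both strands were searched, also for the RFX motif GTTGCCA (3.88%) and RE1 (0.0479%), of which these 4 windows held none. No match overlapped one of another motif in these windows. A match describes the letters and not a bound site.

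The first of these, in Gria2, was called in every library with a -log10 q above 10. The region (chr3:80710368-80710934) overlaps a Gria2 exon. Its -log10 q was 21.6 and 22.6 in alpha, 14.3, 12.3 and 10.9 in beta, and 26.0 and 17.9 in delta, and its fold enrichment over the local background was 11.8 and 11.7, 10.6, 9.49 and 8.78, and 13.3 and 11.2. The 3 beta libraries were lowest in both measures. The order did not hold by percentile, where beta 1 was highest (99.4) and delta 2 lowest (91.3). Nor did it hold by rank, where beta 1 (2908) and beta 2 (3938) stood before every alpha and delta library. The region was stronger than the Gria2 start-site peak in all 7 libraries by percentile.

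The second lay just downstream and was split by cell type (chr3:80709089-80709536, also overlapping a Gria2 exon). It was called in both alpha libraries (-log10 q of 9.60 and 9.77), in both delta libraries (9.91 and 3.81) and in no beta library. One other consensus region of the family had this pattern, in an intron of Gria1 (chr11:57100335-57100828, 89.2 kb into the gene), with -log10 q of 2.16 and 1.02 in alpha and 5.37 and 1.93 in delta. These are 2 of 155 regions (1.29%), beside 1.43% of all consensus regions, so that the pattern was about as common in the family as elsewhere.

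The third, in an intron of Grik1 (chr16:88170971-88171714), was called in all 7 libraries although the Grik1 start was called in 2. Its fold enrichment was 7.86 and 12.7 in alpha, 7.50, 7.25 and 8.03 in beta, and 21.3 and 16.5 in delta. Both delta libraries lay above the other 5 by fold enrichment. By percentile they did not, since beta 1 (98.9), the longest list, lay above delta 2 (96.9). By rank they did, with delta 1 at 1509, delta 2 at 2340 and beta 1 next at 5840. The -log10 q was 9.21 and 20.5 in alpha, 8.54, 7.64 and 9.63 in beta, and 56.2 and 34.2 in delta.

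The fourth lies in an intron near the 3' end of Grik2 (chr10:49131226-49131899) and also had both delta libraries highest by fold enrichment. Fold enrichment was 9.72 and 9.29 in alpha, 9.68, 5.65 and 4.02 in beta, and 21.9 and 20.1 in delta, and -log10 q was 13.0 and 12.2, 12.6, 5.08 and 2.57, and 55.6 and 43.7. In delta 2 it was the peak of rank 1423 of 75860, and in beta 3 of rank 29323 of 103935. By percentile beta 1, the longest list, was highest (99.3), above delta 1 (99.0) and delta 2 (98.1), so that this order did not hold by percentile. By rank it did, with delta 1 at 1542, delta 2 at 1423 and beta 1 next at 3522. Of the 6 regions of the family called in all 7 libraries, these 2 had both delta libraries above the other 5 in fold enrichment, beside 18.4% of all regions called in all 7 libraries. At the Grik2 start, fold enrichment ran from 6.88 in beta 2 to 15.1 in alpha 2, and the cell types overlapped. No test was run on these differences, and the number of reads per library, on which -log10 q and fold enrichment depend, was not used here. By the study's quality control table, unique mapped reads were fewer in all 3 beta libraries than in both alpha libraries and delta 1.

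**Figure D2:**
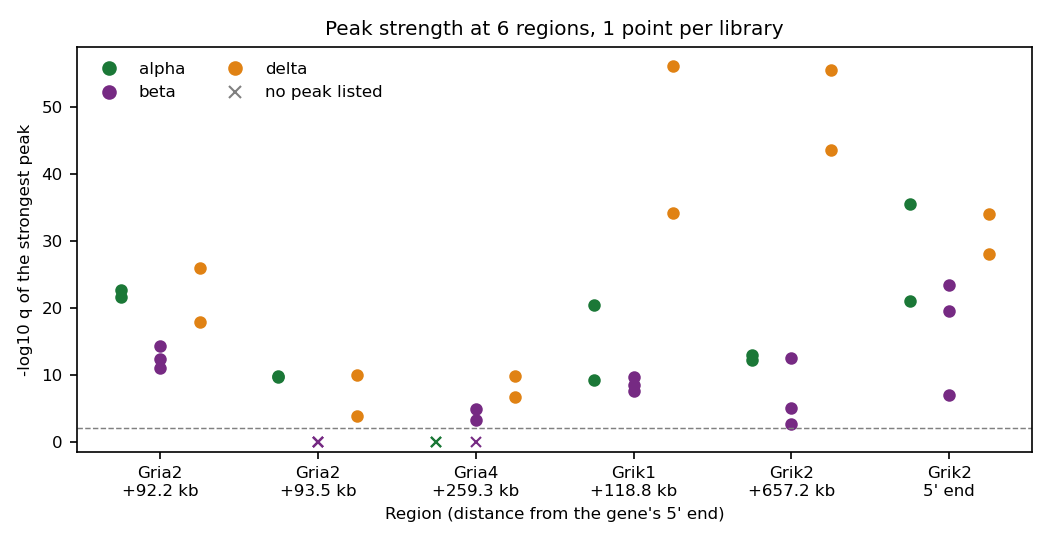
The -log10 q of the strongest peak (vertical axis) at 6 regions of the family (horizontal axis, with the distance from the gene's 5' end), with 1 point per library coloured by cell type, crosses where no peak was listed and a dashed line at 2. The delta points stand apart above the others at the intronic regions of Grik1 and Grik2, and the beta points are crosses at the second Gria2 region.

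The 6 regions called in all 7 libraries were 3.87% of the family's 155, beside 13.3% of all consensus regions. They were the Gria2 exonic region, the Grik1 and Grik2 intronic regions, the Grik2 start, an intronic region of Gria4 353 kb into the gene (chr9:4442585-4443288), and a region upstream of Grik5 (chr7:25076815-25077570) that overlaps an exon of the neighbouring gene Zfp574 and was the strongest in every library (-log10 q of 26.4 to 93.6). The Gria4 region, picked here for being called in all 7, had fold enrichments of 8.20 in beta 2 and 9.38 in beta 3 against 2.87 to 4.39 in the other 5. Similarly, 43 of the 155 regions (27.7%) had a -log10 q of 2 or more in 2 libraries or more, beside 38.3% of all consensus regions. Per Mb, the windows held 0.805 to 1.03 times the genome's density of peaks in the 7 libraries, and 0.582 to 0.862 times when only peaks with a -log10 q of 2 or more were counted. Thus strong peaks and regions shared by all libraries were less frequent in this family than elsewhere, whereas its density of all peaks reached that of the genome in alpha 2 and beta 1. These differences were not tested.

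By position, 121 of the 155 regions lay in introns, 12 overlapped exons, 11 lay within 3 kb of a 5' end, and 4 and 7 lay in the upstream and downstream flanks. Their number ran from 7 in Grik5, the shortest gene at 62.5 kb, to 40 in Grik2, the longest at 694 kb. Of the 155 regions, 93 were called in exactly 2 libraries, and 55 of these included beta 1.

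Regions were called open where 2 or more replicates had a peak, which is 2 of 3 in beta cells and 2 of 2 in alpha and delta cells. Leaving out a beta library thus makes the beta rule stricter. Alpha cells had 49 of the 155 open (31.6%), beside 34.0% of all consensus regions. Beta cells had 52 (33.5%), beside 42.1%, and delta cells 37 (23.9%), beside 33.6%. The beta count was 16 of 100 (16.0%) without beta 1, beside 29.7% of all regions, 31 of 138 (22.5%) without beta 2, beside 33.0%, and 27 of 137 (19.7%) without beta 3, beside 29.5%. The per-gene counts differed most for Grik4, where 13 were open in alpha, 1 in beta and 4 in delta, and for Grik2, with 7, 16 and 6. Without beta 1 they were 13, 0 and 4 for Grik4 and 7, 5 and 6 for Grik2. For Grik2 they were 7, 7 and 6 without beta 2, and 7, 10 and 6 without beta 3. The higher beta count of Grik2 was thus not kept without beta 1 or without beta 2.

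**Figure D3:**
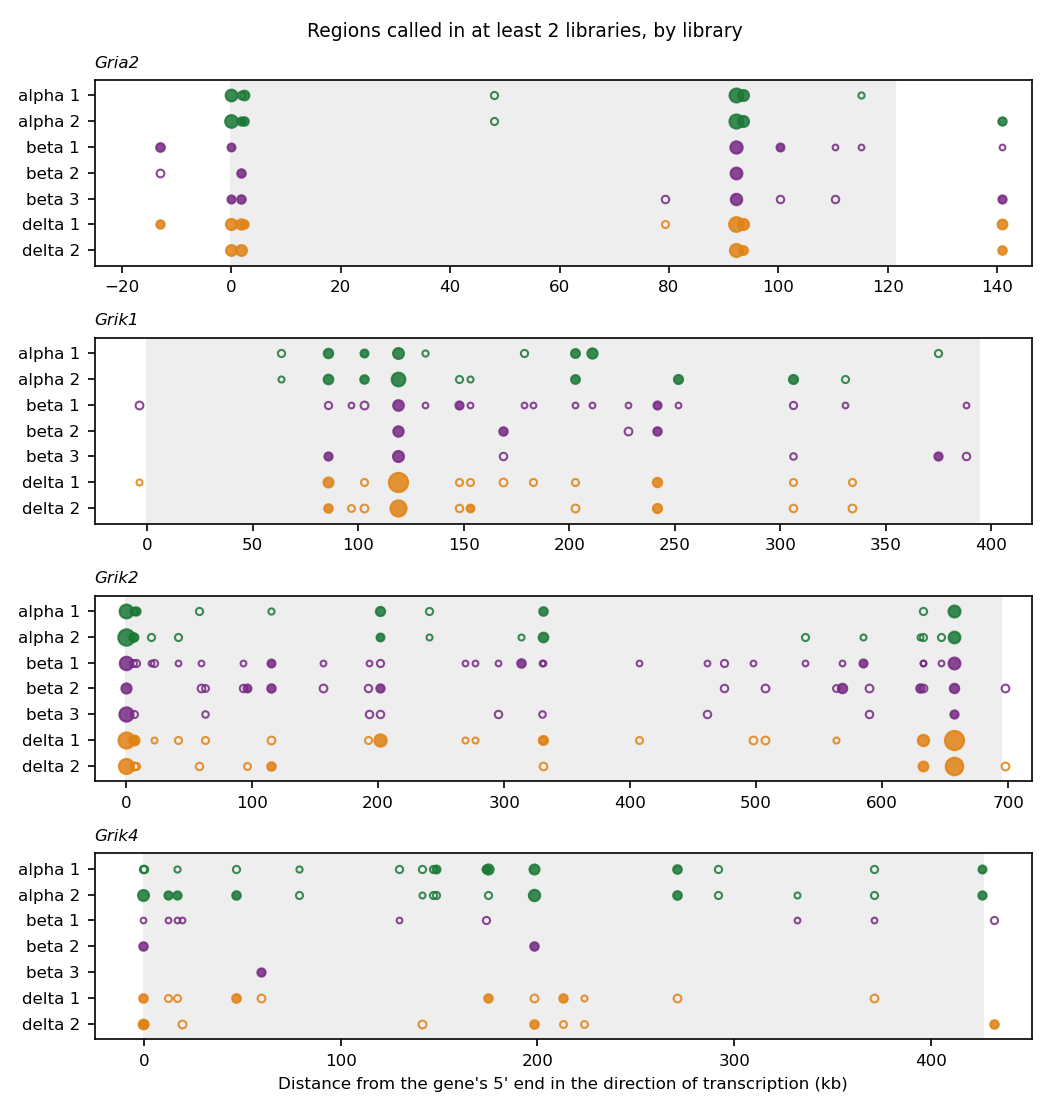
Consensus regions of Gria2, Grik1, Grik2 and Grik4 by distance from the 5' end in kb (horizontal axis; grey marks the gene body) in each library (rows, coloured by cell type). Circle size grows with -log10 q and filled circles have at least 2. In Grik4 the alpha rows hold 16 and 15 regions along the whole gene, beta 1 holds 9 and beta 2 and beta 3 hold 2 and 1, whereas in Grik2 the 2 strongest regions stand in every row.

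The contrasts between pairs of cell types were counted as regions with a peak in at least 2 replicates of one and in no library of the other. Open in alpha and in no beta library were 17 of the 155 regions (11.0%), beside 5.41% of all consensus regions. Without beta 1 there were 26 of 100 (26.0%), beside 16.0%. Counting those with a -log10 q of 2 or more, there were 9 of 43 (20.9%), beside 14.9%. The Grik4 window gave 9 of the 17 from its 23 consensus regions, and the other 8 windows gave 8 from 132 (6.06%), close to the share of all regions. With a -log10 q of 2 or more Grik4 gave 2 of 6 and the other windows 7 of 37 (18.9%). Thus the higher share of the family came from Grik4 when all peaks were counted, but not from Grik4 alone among the stronger peaks. In the opposite contrast, 24 regions (15.5%) were open in beta and in no alpha library, beside 14.8%, of which 11 lay in Grik2. That count was 3 without beta 1 (3 of 100, beside 3.94% of all regions), with 2 in Grik2, 11 without beta 2 (7.97%, beside 8.41%) and 10 without beta 3 (7.30%, beside 8.35%), near the share of all regions each time.

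Against delta cells, 12 regions (7.74%) were open in alpha and in no delta library, beside 5.38% of all consensus regions, and 26 of 126 (20.6%) without delta 1, beside 11.8%. Open in beta and in no delta library were 21 (13.5%), beside 13.2%. Without beta 1 they were 2 of 100 (beside 2.83%), without beta 2 11 (7.97%, beside 7.31%) and without beta 3 10 (7.30%, beside 7.19%). In the other direction, 8 regions (5.16%) were open in delta and in no alpha library, beside 5.13%, and 15 (11.4%) without alpha 2, beside 10.05%. Also 8 were open in delta and in no beta library, beside 4.85%, and 15 (15.0%) without beta 1, beside 13.6%. These shares were near those of all regions, and the widest gap was that of alpha against delta, 7.74 beside 5.38%, and 20.6 beside 11.8% without delta 1.

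Against both other cell types, 10 regions (6.45%) were open in alpha alone, beside 2.42% of all consensus regions, 18 (11.6%) in beta alone, beside 10.7%, and 5 (3.23%) in delta alone, beside 2.06%. Of the 10 alpha regions 5 lay in Grik4, and 9 of the 18 beta regions lay in Grik2. Beta 1 was 1 of the libraries in 17 of the 18 beta regions, and without it 1 of 100 regions was open in beta alone, in Grik2, beside 1.94% of all regions. Without beta 2 there were 9 of 138 (6.52%, beside 5.73%), and without beta 3 8 of 137 (5.84%, beside 5.85%). A -log10 q of 2 or more in 2 libraries was reached by 2 of the regions open in 1 cell type alone, both alpha. They were an exon at the 3' end of Grik4 (chr9:42518187-42518493, -log10 q of 2.16 and 2.63) and a region downstream of Grik3 (chr4:125718807-125719141, 2.16 and 5.60). The strongest Grik4 region away from its start, 198 kb into the gene (chr9:42746021-42746476), was called in both alpha (6.53 and 10.7), in beta 2 (3.04) and in both delta libraries (1.91 and 3.21).

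In Gria4 the order of alpha and delta was turned. An intronic region 259 kb into the gene (chr9:4536549-4537279) was called in beta 1 (3.21), beta 3 (4.84) and both delta libraries (6.65 and 9.86), by -log10 q, and in no alpha library. In Gria3 a region overlapping an exon 169 kb into the gene (chrX:41569870-41570324) was called in both alpha libraries (21.9 and 6.42), weakly in beta 1 (0.0774), and in both delta libraries (9.37 and 1.93). In Grik1 a further intronic region 85.7 kb into the gene (chr16:88204454-88204779) was called in all libraries but beta 2.

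The number of peaks was then compared as a share of each library's list, since the lists differed in length. The exact permutation test over the 210 assignments of the libraries to the cell types gave an unadjusted p under 0.05 for 0 of the 9 members, beside 4.42% of all protein-coding genes. Adjusted over all genes no gene passed, the smallest adjusted value being 1. The smallest p this design allows is 0.00952.

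Gria3 came closest (exact permutation p = 0.0667). It had 1.68 and 1.34 peaks per 10000 in the alpha libraries, 0.926, 0.878 and 0.673 in beta and 1.01 and 0.791 in delta. Both alpha libraries lay above the other 5, with means of 1.51 ± 0.239 (SD, n = 2), 0.826 ± 0.134 (n = 3) and 0.902 ± 0.156 (n = 2). When only peaks with a -log10 q of 2 or more were counted, the cell types overlapped and the exact p was 0.876.

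Grik2 (exact p = 0.229) had 1.83 and 2.05 peaks per 10000 in alpha, 3.74, 4.61 and 1.83 in beta and 2.34 and 1.98 in delta. Beta 1 and beta 2 were high and beta 3 was level with alpha 1. With the 50000 strongest peaks of each list, the unadjusted exact p for Grik2 was 0.0381. Grik4 (exact p = 0.352) had 2.36 and 2.05 in alpha, 0.945, 0.329 and 2.21 in beta and 1.90 and 1.32 in delta. Beta 3 lay within the alpha range, and of its 23 peaks there 1 fell in a region shared with another library. Gria4 (exact p = 0.333) had 0.991 and 0.715 in alpha, 1.68, 1.43 and 0.866 in beta and 1.71 and 1.19 in delta. For the other 5 genes the exact p lay between 0.390 and 0.962, and no cell type lay apart from both others.

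**Figure D4:**
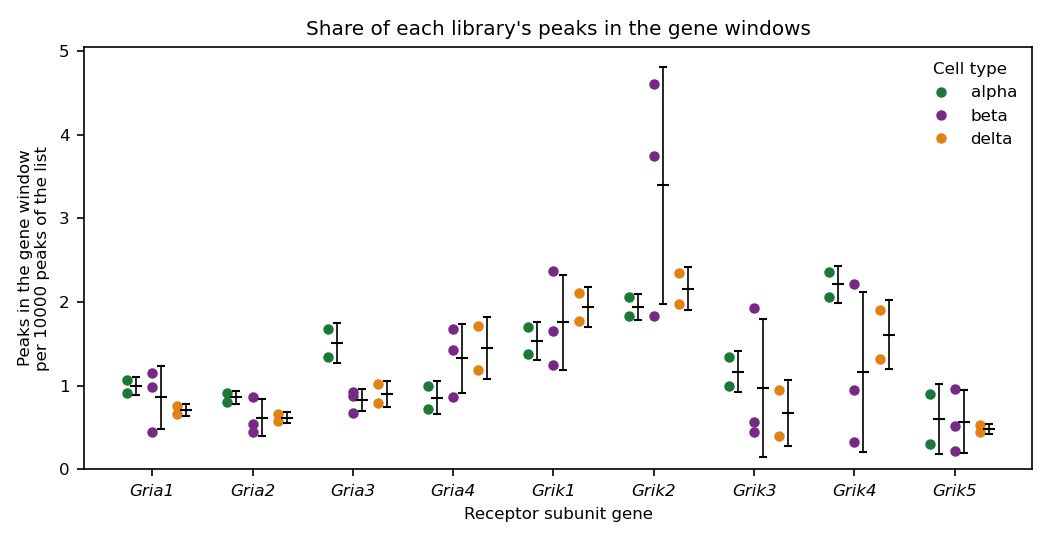
Peaks in each gene's window per 10000 peaks of the library's list (vertical axis) for the 9 genes (horizontal axis), with 1 point per library coloured by cell type and bars for the mean and SD (n = 2, 3 and 2). The alpha points of Gria3 lie above its other 5 points, and the beta points of Grik2 and Grik4 spread most.

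As Gria3 lies on chromosome X, its share was also compared by sex. The 3 female pools averaged 1.19 ± 0.428 (SD) peaks per 10000 and the 4 male pools 0.932 ± 0.290, a difference of 0.257 (exact two-sided permutation p = 0.429). Per 10000 peaks of chromosome X the order was the other way, with 21.2 in female and 28.1 in male pools (exact p = 0.571). Neither difference was larger than the spread between pools.

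The other genes of glutamate signalling were counted in the same way at their 5' ends. Of 51 such genes, alpha cells had 30 open, beta cells 29 and delta cells 22, beside 56.8, 56.1 and 54.1% of all 21938 protein-coding genes. A peak in all 7 libraries was called at 16 of the 51 and at 9112 of all genes. There was none in any library at 5 of the 51 and at 3793 of all genes. Without beta 1, the beta count was 18, beside 44.3% of all genes. The same shares of all genes stand beside the lists that follow. Of 9 NMDA and delta receptor subunit genes, alpha cells had 1 open, beta cells 4 and delta cells 2, and none had a peak in all 7 (beta 1 left out, 1 was open in beta). Of 8 metabotropic receptor genes 4, 5 and 3 were open (3 in beta without beta 1), with Grm3, Grm5 and Grm8 called in all 7 libraries.

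Of 14 genes for auxiliary subunits, which set the gating and traffic of AMPA and kainate receptors, alpha cells had 10 open, beta cells 7 (3 without beta 1) and delta cells 3. Neto1 and Neto2, the auxiliary subunits of kainate receptors, were the 2 called in all 7 libraries. Of 8 genes for scaffolds and for RNA editing 6, 5 and 6 were open (4 in beta without beta 1), and Grip1, Dlg1, Dlg2 and Adarb1, whose product edits glutamate receptor transcripts, were called in all 7. Of 8 transporter genes 5, 4 and 4 were open (3 in beta without beta 1), with Slc1a2, Slc1a3 and Slc1a6 called in all 7.

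A pattern split by cell type was seen at 4 of the 51 genes. Such patterns were not counted over all protein-coding genes, so that the 4 cannot be read as many or few. Grid1 had a start-site peak in both alpha, both delta and no beta library, and Grin3b in 2 beta libraries and no other. Cacng3 and Shisa9 had one in both alpha and 2 beta libraries and in no delta library. Beta 1 was 1 of the 2 beta libraries at Grin3b, Cacng3 and Shisa9. With a -log10 q of 2 or more, the peak was called in 3 libraries at Grid1, 2 at Shisa9, 1 at Grin3b and 0 at Cacng3.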

How the data were processed

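ATAC-Seq, which cuts open chromatin with a transposase, was run on 7 pools of FACS-sorted mouse islet cells. According to the methods and per the labels, the authors trimmed single-end reads (Trimmomatic), aligned them with Bowtie2 to an mm10 (GRCm38) index that left out the mitochondrial genome, used Picard for duplicates, dropped blacklisted regions and called peaks per sample with MACS2; a shift for the transposase is not given in the sources used here. The deposited lists hold, for each peak, its interval and summit offset, the fold enrichment (a ratio over local background), −log10 p and −log10 q values, and a score. They hold no read counts, so that sequencing depth per sample was not used here and list length (75860 to 518503 distinct peaks) limits the precision instead. The lists are of separate samples, not pooled ones. Peak lists hold presence and strength of calls, and a missing peak does not show closed chromatin.

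From these, rows that repeat an interval were reduced to the summit of highest −log10 p, and peaks were matched to GENCODE M21 genes of the same build (gene body and 20 kb on either side; 1 kb around a 5' end). Peaks of different lists sharing at least 1 base were merged (checked against bedtools 2.31.1, 0 regions differing), and consensus regions had a peak in at least 2 libraries. The percentile is the average rank of −log10 p within a list. Peak shares were compared by an exact permutation test of the between-group sum of squares over 210 assignments, for all 21938 genes, with Benjamini-Hochberg adjustment. Analyses used Python 3.11.15, numpy 2.4.6 and pandas 2.3.3, and were tested on simulated data. Groups follow the labels; sexes follow the study's quality control table. Pools of different sex hold different animals, but whether beta 1 and beta 3, both male, share animals is not given in the sources used here. Beta cells were sorted from the same kinds of mice as alpha and delta cells, so that libraries of different cell types may share animals, which the permutation over all 7 libraries leaves out. The p-values give the share of label assignments of these samples with a group difference at least as large as the observed one. Members and gene lists were chosen with earlier results of these data known. Regions were named by rule: the start-site region, the 2 others of highest median percentile per gene, and those open in 1 cell type alone with a −log10 q of at least 2 in 2 libraries. Other glutamate genes were named where a start-site peak was split by cell type or where fewer than 6 of a list shared a class. The Gria4 region 353 kb into the gene and the 2 regions with peaks in alpha and delta but not beta libraries were singled out after their values were seen. Alternatives were a −log10 q minimum of 2, the 50000 strongest peaks, other windows and overlaps, blocking, and leaving out each library. Some results on other genes are not reported here.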

Additional observations from a re-analysis of the deposited data

How the results depend on the processing

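Shorter and stricter lists moved most counts. With peaks of a -log10 q of 2 or more, members open at the 5' end were 3 in alpha and 3 in beta cells (33.3%, beside 51.5 and 41.4% of all genes). Of 43 regions, alpha cells had 21 open (48.8%, beside 59.2% of all regions), beta cells 15 (34.9%, beside 43.6%) and delta cells 18 (41.9%, beside 58.6%). Regions open in one cell type and in no library of another were counted next. They were 9 for alpha, not beta (20.9%, beside 14.9% of all regions), 5 for alpha, not delta (11.6%, beside 8.32%) and 4 for beta, not alpha (9.30%, beside 5.63%). There were 2 for beta, not delta (4.65%, beside 4.15%), 5 for delta, not alpha (11.6%, beside 7.90%) and 4 for delta, not beta (9.30%, beside 13.5%). With the 50000 strongest peaks of each list the same counts were 3 and 3 members (beside 51.1 and 45.6% of all genes). Open in alpha, beta and delta cells were 22, 18 and 20 of 46 regions (47.8, 39.1 and 43.5%, beside 52.5, 48.8 and 55.9%). For alpha, not beta there were 8 (17.4%, beside 9.998% of all regions), and for alpha, not delta 5 (10.9%, beside 6.55%). For beta, not alpha there were 5 (10.9%, beside 8.92%), and for beta, not delta 2 (4.35%, beside 6.52%). For delta, not alpha there were 6 (13.0%, beside 8.46%), and for delta, not beta 5 (10.9%, beside 10.8%). With these peaks 1 member, Grik2, had an exact p under 0.05 for its peak share (0.0381). Where peaks had to cover 0.5 of a region, 13 of 143 regions (9.09%, beside 7.36% of all regions) were open in delta and in no beta library. Gria3 was lower in female pools by peaks of chromosome X (-6.88 per 10000), with a -log10 q of 2 or more (-0.202) and with the 50000 strongest peaks (-0.0833), none past the threshold. The cause of these moves was not tested.

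Leaving out each library in turn gave 4 to 7 members open at the 5' end in beta cells and 16 to 52 regions open in beta cells. Regions open in one cell type and not in another ranged from 17 to 26 (alpha, not beta), 12 to 26 (alpha, not delta), 3 to 30 (beta, not alpha), 2 to 31 (beta, not delta), 8 to 15 (delta, not alpha) and 8 to 15 (delta, not beta). The number of regions counted changed with the library left out, and so did the shares of all regions. In the same order, these were 5.82 to 16.0, 5.88 to 11.8, 3.94 to 21.2, 2.83 to 21.8, 5.61 to 10.05 and 5.54 to 13.6%. Alpha and delta counts have no value without an alpha or a delta library, since 1 replicate is left. Of the alternatives for counts and for the Gria3 difference, 45 kept the direction and stayed within 1.5 times or on the same side of the threshold. The count for delta, not alpha with the 50000 strongest peaks was among these 45.

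With a replicate block, 0 members had an exact p under 0.05, and that of Gria3 was 0.167 (smallest possible 0.0556). Equal numbers do not mark shared animals, since alpha 1 and delta 1 are female pools and beta 1 is a male pool, and which libraries came from the same mice is not given in the sources used here. The correlation of deviations from the group means was -0.107 to 0.512 over 6 same-numbered pairs. Permuted within sex, the exact p of Gria3 was 0.111. The difference of Gria3 by sex was 0.257 with the replicate block (exact p = 0.333).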
